A study of Mus musculus with 10 samples.

Results

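The 8 genes described here are the muscle ubiquitin ligases Fbxo32, Fbxo30, Trim63, Trim54 and Trim55 and the transcription factors Foxo1, Foxo3 and Foxo4. They were chosen by name, and all 8 were found among the 23337 genes of the authors' deposited table. Each of the 8 had an adjusted p-value there. They were compared between mouse cardiomyocytes carrying dnMKL1 and cardiomyocytes carrying GFP alone.

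A ubiquitin ligase attaches ubiquitin to chosen proteins, and chains of ubiquitin send a protein to the proteasome. Fbxo32 (atrogin-1) and Fbxo30 (MUSA1) are F-box proteins, which pick the target inside an SCF complex built on Cul1, Skp1 and Rbx1. Trim63 (MuRF1), Trim55 (MuRF2) and Trim54 (MuRF3) are RING-finger ligases that sit on the sarcomere, and MuRF2 has been placed in a chain from the titin kinase domain through Nbr1 and p62 to SRF. FOXO factors are held out of the nucleus by AKT when insulin or IGF1 is sensed, and in wasting muscle they switch on atrogin-1 and MuRF1.

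Both groups were wild-type mice given an AAV9 vector on postnatal day 1 at 5e+08 viral genomes per gram, and sorted cardiomyocytes were taken on postnatal day 14. The vector of the dnMKL1 group coded for dnMKL1 with GFP, and that of the GFP group for GFP only, in each case behind the cardiac troponin T promoter (cTNT), so that expression was aimed at cardiomyocytes. dnMKL1 is a dominant-negative form of MKL1 (MRTF-A), a coactivator of serum response factor (SRF). There were 5 libraries in each group, called biological replicates in the labels. The comparison asks which transcripts differ between cells given dnMKL1 and cells given GFP alone. How far MKL1 signalling was blocked was not tested here.

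The file is the authors' own comparison and holds no values per library, so every value below is a mean over a group or over all 10 libraries, and overlap between single libraries could not be seen. Estimated library totals ran from 8803028 to 17123577 counts in the GFP group and from 8835136 to 17228616 in the dnMKL1 group. The sign of the fold change was read from Mkl1, at 9.80 (SE 0.15) on the log2 scale in the authors' deposited table, vector reads included, so positive values mean higher in dnMKL1. Adjusted p-values are the authors' Benjamini-Hochberg values over 14056 genes, of which 34.1% were under 0.05, with 2340 higher and 2452 lower. Scaling both groups to the same total count adds 0.29 to every log2 fold change and turns that split into 5685 higher and 927 lower. Equalizing the summed level of 7 cardiomyocyte markers adds 0.71, which turns it into 10091 higher and 187 lower. Without Myh6, the most abundant of these markers, the shift is 0.44. The fold changes below are relative to the authors' scaling unless another is named. Recomputed p-values and calls under another scaling keep the deposited SE and take the shift as exact. They leave out the error of the shift, so they are too small where that error matters.

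Of the 7 cardiomyocyte markers, 7 were detected and 5 were lower, and their summed group mean went from 1129562 normalized counts in GFP to 688621 in dnMKL1. Myh6, the main cardiac myosin of the adult mouse, made up most of that sum, with a base mean of 594986 in the authors' deposited table. Endothelial markers summed to 2832 in GFP and 2924 in dnMKL1 (0 of 8 called) and fibroblast markers to 3539 and 4913 (3 of 8 higher). Mural markers summed to 11922 and 8174 (3 higher and 1 lower of 8), or 1468 and 3176 without Acta2, the lower one. Most of that last gain was Cspg4, which went from 501 to 2019, and 4 of the 8 mural markers were not called. Macrophage markers summed to 161 and 145 (1 of 8 higher). The skeletal muscle genes Myog, Myod1, Myh1, Myh2 and Myh4 had base means from 0 to 0.764 in the authors' deposited table. The other 5 of that list of 10 were detected there, with base means of 34930 for Ckm and 2100 for Acta1, both also expressed in heart, 42.9 for Tnni2, 9.16 for Mylpf and 1.33 for Tnnt3. Of the red blood cell genes, Hba-a1 and Hba-a2 were listed at 0 and Beta-s had a base mean of 57.0 in the authors' deposited table. In sorted bulk cells, fewer cells of a type, less RNA per cell and a response of the marker genes themselves cannot be told apart. The log2 fold changes of the 7 cardiomyocyte markers ran from -0.87 to -0.21, and whether dnMKL1 acts on these genes was not tested. The marker scaling takes their summed level as unchanged. The part of these cell types in the results below was not tested.

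The 3 MuRF genes did not move together. Trim54 fell to 0.366 times its GFP level (95% interval 0.296 to 0.453), Trim55 fell to 0.708 times (0.633 to 0.792; higher under marker scaling, and not called when that scaling leaves out Myh6), and Trim63, the most abundant of the 8 genes, rose to 1.10 times (1.03 to 1.18). Neither F-box gene and none of the 3 FOXO genes passed the test under the authors' scaling. The counts were thus 1 higher, 2 lower and 5 not called, against 16.6% higher and 17.4% lower among all genes tested. Those genes had base means as low as 1.31 normalized counts. Shares among genes of the same level as these 8, or as the lists below, were not computed. The median log2 fold change of the 8 genes was 0.18, beside 0.021 for all genes tested.

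**Figure D1:**
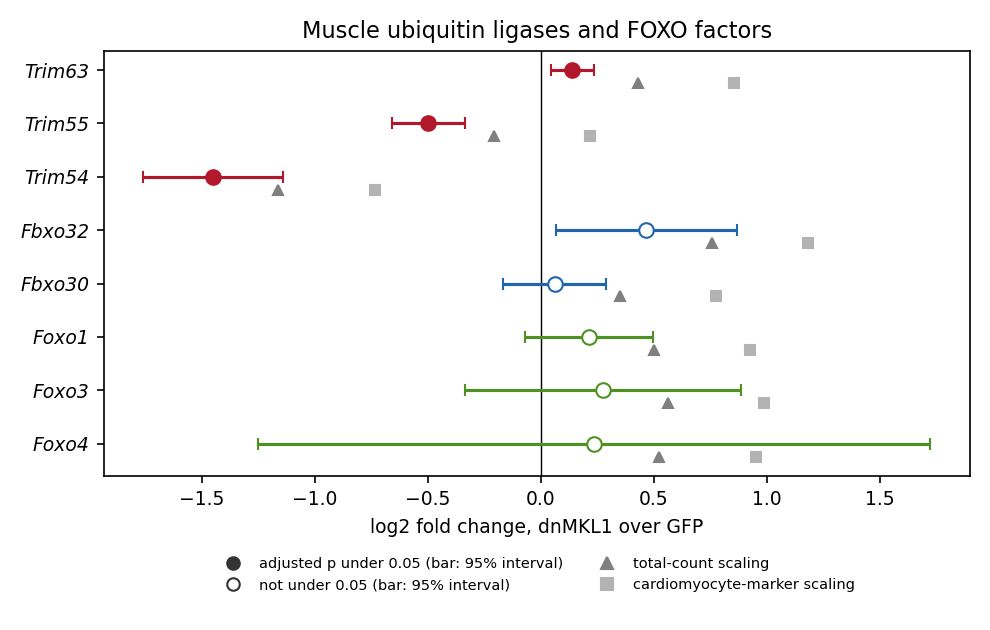
Log2 fold change (dnMKL1 over GFP) of the 8 genes with 95% intervals from the deposited SE (circles and bars, filled where the adjusted p-value was under 0.05); red marks MuRF genes, blue F-box genes and green FOXO genes. Triangles and squares give the same values under total-count and cardiomyocyte-marker scaling; Trim54 lies below 0 under each scaling, and Trim55 crosses to 0.22 under the marker scaling (-0.06 when that scaling leaves out Myh6, not drawn).

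Trim54 (MuRF3, ENSMUSG00000062077.14, chr5:31116712-31137630, plus strand, GRCm38) codes for a ligase that binds microtubules and the sarcomere. Its implied mean was 1153 normalized counts in GFP and 422 in dnMKL1. On the log2 scale the authors' deposited table gave a difference of -1.45 (SE 0.16; adjusted Wald p = 4.0e-18). Only 0.882% of the genes tested had a smaller p-value. The fall held under total-count scaling (-1.16, recomputed adjusted p = 3.9e-12) and under marker scaling (-0.74, recomputed adjusted p = 6.6e-06).

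Trim55 (MuRF2, ENSMUSG00000060913.6, chr3:19644474-19692421, plus strand) went from an implied mean of 1483 normalized counts in GFP to 1050 in dnMKL1. Here the authors' deposited table gave a log2 fold change of -0.50 (SE 0.08) and an adjusted Wald p-value of 2.5e-08. The size of this difference depended on the scaling. With equal total counts it was -0.21 (recomputed adjusted p = 0.0255), and with equal cardiomyocyte markers it was 0.22 (recomputed adjusted p = 0.0127). Both p-values take the shift as exact, while the SE of Myh6 alone was 0.11, above the 0.08 of Trim55. Whether either value would pass with the error of the shift included was not tested. The reversal rested on Myh6, the bulk of the marker sum: with the other 6 markers the value was -0.06 (recomputed adjusted p = 0.532), not called in either direction.

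Trim63 (MuRF1, ENSMUSG00000028834.13, chr4:134315120-134329629, plus strand), a ligase that clears thick-filament and troponin proteins in wasting muscle, had the highest base mean of the 8 in the authors' deposited table, 5811 normalized counts, above 98.1% of genes tested. Its implied mean was 5531 in GFP and 6092 in dnMKL1. Its log2 fold change of 0.14 (SE 0.05; adjusted Wald p = 0.0137), from the authors' deposited table, passed the test. Its error was small for its level. The 267 genes within 1.5 times its base mean had a median SE of 0.0996, and the SE of Trim63 stood at percentile 0.749 among them. The rise would not pass a threshold of 0.01, and it was larger under total-count scaling (0.43) and marker scaling (0.85).

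Differences between members of a family do not depend on scaling. Because the table gives no covariance, each interval here uses the largest SE a difference can have, the sum of both SEs, widened for the 7 pairs compared. The log2 fold change of Trim63 exceeded that of Trim54 by 1.59 (interval 1.04 to 2.14) and that of Trim55 by 0.64 (0.29 to 0.99). Trim55 exceeded Trim54 by 0.95 (0.31 to 1.60). Every pair of MuRF genes therefore differed in response beyond the replicate error.

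Promoters are shown for Trim63 and Trim54, since these MuRF genes differed most in response. Of the 8 genes, 5 matched the RefSeq promoter table (GRCm38.p6), which holds 250 bases before and 50 after each start. The runs below are 5′ to 3′ on the gene's plus strand, at chr4:134314870-134315169 for Trim63 and chr5:31116362-31116661 for Trim54. The Trim63 run spans the GENCODE start given above, 134315120. The Trim54 run follows a RefSeq start upstream of the GENCODE one, 31116712, and ends before it. Capitals mark matches to the FOXO core GTAAACA, read on either strand, and to the E-box CANNTG, the site of MyoD-type factors, with no overlaps between them.
Trim63: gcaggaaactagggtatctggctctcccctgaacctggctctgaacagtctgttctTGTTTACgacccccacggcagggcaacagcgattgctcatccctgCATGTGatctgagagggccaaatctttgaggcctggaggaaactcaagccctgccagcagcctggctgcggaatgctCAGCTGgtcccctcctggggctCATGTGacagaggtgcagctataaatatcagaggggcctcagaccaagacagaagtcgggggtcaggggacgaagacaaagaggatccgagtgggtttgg
Trim54: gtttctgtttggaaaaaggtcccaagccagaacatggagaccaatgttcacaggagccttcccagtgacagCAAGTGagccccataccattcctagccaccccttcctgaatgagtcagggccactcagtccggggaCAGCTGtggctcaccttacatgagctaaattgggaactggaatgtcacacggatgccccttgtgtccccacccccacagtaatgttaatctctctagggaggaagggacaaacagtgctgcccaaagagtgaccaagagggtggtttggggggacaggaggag
The Trim63 promoter holds 1 FOXO core, which reads TGTTTAC on the strand shown and starts at position -194 from the first transcribed base, and 3 E-boxes. The Trim54 promoter holds 0 FOXO cores and 2 E-boxes. A FOXO core was found in 3.55% of 27025 promoters of this length, and an E-box in 72.1%. Among the 9931 promoters of genes tested, the shares were 2.38% and 63.6%. The CArG box bound by SRF was found in 0 of the 5 promoters, in 1.57% of all and in 1.35% of those of genes tested. Of the other matched promoters, those of Foxo1, Foxo3 and Fbxo30 held 0 FOXO cores. These are matches of letters, and binding was not measured. In the GENCODE annotation Trim54 overlaps the antisense gene Gm15469, Fbxo32 overlaps Gm15943 and Foxo1 overlaps Gm20402. The use of strand in counting is not given in the sources used here, so reads of these pairs cannot be told apart. On the same strand, Trim55 overlaps BC002189 and Foxo1 overlaps Gm38034, whose reads strand would not separate. None of the overlapping genes named here was listed in the authors' deposited table.

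Fbxo32 (atrogin-1, ENSMUSG00000022358.7, chr15:58175879-58214932, minus strand), which in the heart targets calcineurin among other proteins, averaged 1584 normalized counts in GFP and 2189 in dnMKL1, as implied means. The ratio was 1.38 (95% interval 1.05 to 1.83). The authors' deposited table listed it at 0.47 on the log2 scale (SE 0.21), with an unadjusted p-value of 0.0228 and an adjusted one of 0.0636, just outside the threshold. Its error was large for its level, the reverse of Trim63. The SE stood at percentile 95.02 of the 1045 genes within 1.5 times its base mean, whose median SE was 0.0948. Under total-count scaling the value was 0.76 (recomputed adjusted p = 8.7e-04).

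Fbxo30 (MUSA1, ENSMUSG00000047648.13, chr10:11281330-11298052, plus strand), a ligase that BMP signalling holds down in muscle, had implied means of 1074 normalized counts in GFP and 1120 in dnMKL1. The authors' deposited table gave a log2 fold change of 0.06 (SE 0.12; adjusted p = 0.754), and the 95% interval, from -0.17 to 0.29, limits a change under this scaling to ratios between 0.891 and 1.22. Total-count scaling moved it to 0.35 (recomputed adjusted p = 0.0076). The difference between Fbxo32 and Fbxo30 in log2 fold change was 0.41, with an interval from -0.46 to 1.27 that includes 0.

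Foxo1 (ENSMUSG00000044167.6, chr3:52268336-52353221, plus strand), a FOXO factor of metabolism and of vessels, had implied means of 317 normalized counts in GFP and 367 in dnMKL1. The authors' deposited table gave it 0.21 on the log2 scale (SE 0.14; adjusted p = 0.276), with a 95% interval from -0.07 to 0.49. Total-count scaling gave 0.50 (recomputed adjusted p = 0.0019). Foxo1 is also expressed in endothelial cells, whose 8 markers had a summed level of 2832 in GFP and 2924 in dnMKL1 with 0 called.

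Foxo3 (ENSMUSG00000048756.11, chr10:42181841-42276755, minus strand) and Foxo4 (ENSMUSG00000042903.8, chrX:101254528-101260873, plus strand) were low. Foxo3 had implied means of 35.2 and 42.5 normalized counts in GFP and dnMKL1, about 172 and 237 reads summed over the 5 libraries of each group. Foxo4 had implied means of 3.07 and 3.62, about 15 and 20 reads per group. For Foxo3 the authors' deposited table gave a log2 fold change of 0.27 (SE 0.31; adjusted p = 0.562). For Foxo4 it gave 0.24 (SE 0.76; adjusted p = 0.864). The 95% interval of Foxo4 ran from -1.25 to 1.72, so that a change of 1 on the log2 scale in either direction was not detectable at this depth. The log2 fold changes of the 3 FOXO genes ran from 0.21 to 0.27, but the widest of their pairwise intervals reached from -2.84 to 2.92, and these intervals do not show that the 3 genes act alike.

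Levels were compared per kilobase of the longest GENCODE transcript. In GFP the order was Trim63 (2933 normalized counts per kilobase), Trim54 (804), Trim55 (571), Fbxo32 (227), Fbxo30 (212), Foxo1 (36.6), Foxo3 (5.13) and Foxo4 (0.972). In dnMKL1 Trim63 stayed first with 3230, followed by Trim55 (405), Fbxo32 (314), Trim54 (294) and Fbxo30 (221). Trim54 thus went from rank 2 to rank 4, though no error between libraries can be given for these levels, and whether neighbours such as Fbxo32 and Trim54 in dnMKL1 differ was not tested. The ranks also depend on the transcript lengths, and which transcripts these cells use was not checked. Without division by length, Trim54 (1153) was below Fbxo32 (1584) and Trim55 (1483) in GFP already. Trim63 made up 68.1% of the summed MuRF level in GFP and 82.2% in dnMKL1, while Trim54 made up 18.7% and 7.50%. These shares do not depend on scaling, but they do depend on the transcript lengths used. The summed MuRF level was 4308 in GFP and 3929 in dnMKL1, a log2 ratio of -0.13, which turns positive under either of the other scalings. Foxo1 held 85.7% of the FOXO level in GFP and 85.2% in dnMKL1.

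**Figure D2:**
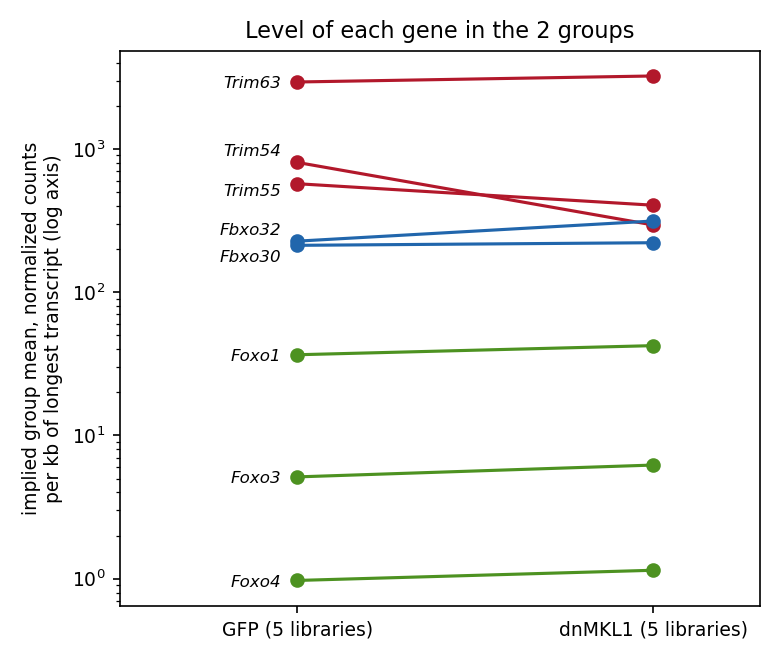
Implied group means of the 8 genes in normalized counts per kilobase of the longest transcript (log axis), GFP at left and dnMKL1 at right, a line for each gene (MuRF red, F-box blue, FOXO green), with no error bars because the table has no values per library. Trim54 crosses below Trim55 and Fbxo32, ending at 294.

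The spread between libraries implied by the SE differed among the genes. As an approximate coefficient of variation it was 5.09% for Trim63, 8.54% for Trim55, 12.4% for Fbxo30, 14.9% for Foxo1, 16.8% for Trim54, 22.3% for Fbxo32, 30.05% for Foxo3 and 62.5% for Foxo4, the last pair at low counts. Counting error alone would give Fbxo32 an SE 9.63 times smaller and Foxo4 an SE 1.52 times smaller. The share of the error that counting makes up was thus larger in Foxo4 than in Fbxo32.

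**Figure D3:**
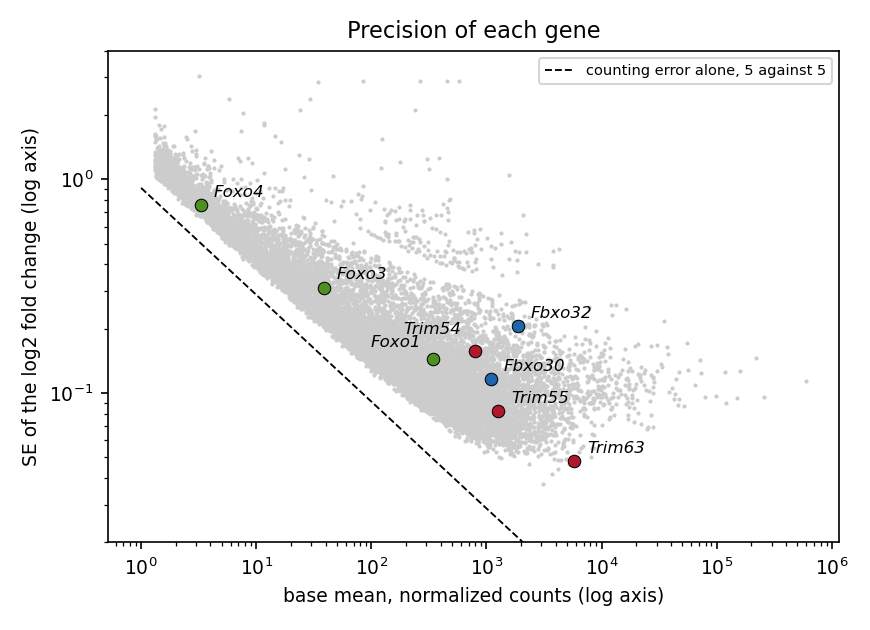
SE of the log2 fold change against base mean (both log axes) for the genes with an adjusted p-value (grey) and the 8 genes (coloured); the dashed line is the SE that counting error alone would give for 5 against 5 libraries. Trim63 lies at the lower edge of genes of its level, Fbxo32 near the upper edge.

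Of 16 genes that carry insulin, PI3K and AKT input to FOXO, 1 was higher (6.25%), 3 were lower (18.8%) and 12 did not pass, with a median of -0.12. The share of lower genes was near the 17.4% of all genes tested. Under total-count scaling 5 were higher and 0 lower. In the authors' deposited table Rictor, of the mTORC2 complex that phosphorylates AKT, rose by 0.39 (SE 0.13; adjusted p = 0.0075). Mtor and Pik3cb, a catalytic subunit of PI3K, had -0.40 (SE 0.14; adjusted p = 0.0183) and -0.32 (SE 0.11; adjusted p = 0.0156) in the authors' deposited table. Those with the highest base means did not pass there: Irs1 had 0.47 (SE 0.26; adjusted p = 0.158), Akt2 -0.18 (SE 0.09; adjusted p = 0.117) and Akt1 -0.50 (SE 0.56; adjusted p = 0.557).

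Of 18 textbook targets of FOXO, 3 were higher, 3 lower and 12 not called, with a median of -0.064. The share in each direction, 16.7%, was near the 16.6% higher and 17.4% lower of all genes tested. Under total-count scaling 9 were higher and 2 lower. According to the authors' deposited table the mitochondrial superoxide dismutase Sod2 fell by 0.88 on the log2 scale (SE 0.11; adjusted p = 1.7e-14). Pdk4, which blocks pyruvate entry into mitochondria, fell by 0.85 in the authors' deposited table (SE 0.25; adjusted p = 0.0026). Ctsl, a lysosomal protease, rose by 0.35 in the authors' deposited table (SE 0.09; adjusted p = 9.9e-04). Catalase (Cat), also abundant, had -0.10 (SE 0.07; adjusted p = 0.288) in the authors' deposited table.

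Among 17 other regulators of the ligases, 16 were tested, and 3 were higher, 3 lower and 10 not called, 18.8% in each direction and so near the shares of all genes. Mstn, the muscle growth inhibitor myostatin, had a log2 fold change of 2.57 (SE 0.48; adjusted p = 1.3e-06) in the authors' deposited table, at a low base mean of 46.2. Rela, a subunit of NF-kB, rose by 0.45 (SE 0.10; adjusted p = 1.4e-04), and the glucocorticoid-induced Tsc22d3 by 0.27 (SE 0.08; adjusted p = 0.0052), both in the authors' deposited table. Lower in the authors' deposited table were Prkaa2, the muscle AMPK catalytic subunit, with -0.56 (SE 0.11; adjusted p = 2.0e-06), and the mitochondrial coactivator Ppargc1a with -0.33 (SE 0.10; adjusted p = 0.0066). The median of this list was -0.052, and under total-count scaling 7 members were higher and 1 lower.

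Other ubiquitin ligases of muscle were more often lower than higher under the authors' scaling. Of 20 genes, 10 were lower (50%), 3 higher (15%) and 7 not called, against 17.4% lower and 16.6% higher among all genes tested. The shares of all genes were not matched to the level of these 20. The median of -0.27 became 0.022 under total-count scaling. Under that scaling 5 were lower and 8 higher. Fbxl22, a cardiac F-box protein of the Z-disc, fell by 1.90 on the log2 scale in the authors' deposited table (SE 0.23; adjusted p = 2.6e-15). Asb2, a SOCS-box adaptor that targets filamins, fell by 1.20 in the authors' deposited table (SE 0.13; adjusted p = 4.4e-18). Fbxo40, a muscle F-box protein that targets Irs1, fell by 0.80 there (SE 0.12; adjusted p = 3.1e-10), and the cardiac RING protein Rnf207 by 0.50 (SE 0.13; adjusted p = 5.2e-04), both per the authors' deposited table. Nedd4, with the highest base mean of the list, had 0.0078 (SE 0.10; adjusted p = 0.967) in the authors' deposited table.

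The SCF core and ubiquitin supply, which the F-box ligases depend on, had 0 higher, 7 lower (41.2%) and 10 not called of 17 genes. Among all genes tested, at any level, 16.6% were higher and 17.4% lower. The median of the list was -0.16. Under total-count scaling the median was 0.13, with 7 higher and 1 lower. The ubiquitin-conjugating enzymes Ube2d1, Ube2b and Ube2d3 fell by 0.56 (SE 0.10; adjusted p = 5.6e-08), by 0.48 (SE 0.10; adjusted p = 1.4e-05) and by 0.33 (SE 0.07; adjusted p = 1.8e-05) on the log2 scale, per the authors' deposited table. Skp1a, the adaptor between F-box proteins and Cul1, did not pass in the authors' deposited table, with 0.09 (SE 0.05; adjusted p = 0.170). The other core genes were lower there, Cul1 with -0.28 (SE 0.07; adjusted p = 1.3e-04) and Rbx1 with -0.32 (SE 0.08; adjusted p = 1.9e-04). Both were named after their values were seen, and both are close in size to the total-count shift of 0.29.

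Genes around the titin kinase, where MuRF proteins dock, had 4 lower (44.4%), 1 higher (11.1%) and 4 not called of 9, with a median of -0.37. The shares among all genes tested, at any level, were 17.4% lower and 16.6% higher. Under total-count scaling 3 were higher and 3 lower. Srf itself fell by 0.80 on the log2 scale in the authors' deposited table (SE 0.10; adjusted p = 2.6e-13). The M-band protein Myom1 fell by 0.87 (SE 0.12; adjusted p = 4.2e-12), as the authors' deposited table gives it. Ttn had -0.41 (SE 0.17; adjusted p = 0.0466) and the LIM protein Fhl2 0.020 (SE 0.09; adjusted p = 0.910) in the authors' deposited table, and Myom2 had -0.37 (SE 0.17; adjusted p = 0.0805) there. The called riser was Sqstm1, which codes for p62, with 0.63 (SE 0.17; adjusted p = 0.0011) in the authors' deposited table, while its partner Nbr1 had -0.05 (SE 0.11; adjusted p = 0.778). Those 2 genes were named after their values were seen.

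Of 12 proteins described elsewhere as substrates of atrogin-1 or MuRF1, 11 transcripts were tested, and 6 were lower, 1 higher and 4 not called. That was 54.5% lower and 9.09% higher, against 17.4% and 16.6% of all genes tested, at any level. In the authors' deposited table the muscle creatine kinase Ckm fell by 1.51 (SE 0.22; adjusted p = 9.6e-11), the ventricular light chain Myl3 by 1.38 (SE 0.12; adjusted p = 4.5e-26) and Myh6 by 0.87 (SE 0.11; adjusted p = 1.1e-12). Mybpc3, which binds myosin in the thick filament, had -0.11 (SE 0.09; adjusted p = 0.356) in the authors' deposited table. The median was -0.27, and 0.020 under total-count scaling, where 3 were higher and 4 lower. Myh6 and Tnni3 also stand in the cardiomyocyte marker list, whose sum was lower in dnMKL1. Protein levels were not measured.

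**Figure D4:**
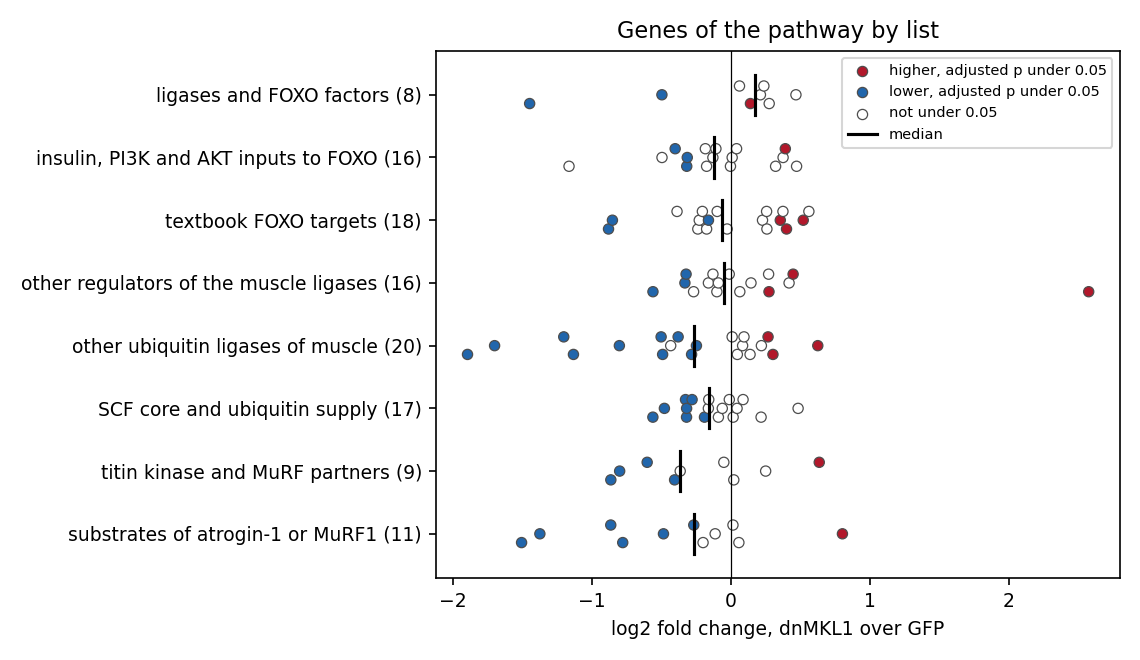
Log2 fold change (dnMKL1 over GFP) of each tested gene by list, with the number tested in parentheses; red points were higher and blue points lower at an adjusted p-value under 0.05, open points did not pass, and black lines are medians. The 8 ligases and FOXO factors have a median of 0.18, and the other ubiquitin ligases of muscle one of -0.27.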

How the data were processed

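RNA from sorted cardiomyocytes of 5 GFP and 5 dnMKL1 mice was measured by RNA sequencing. Per the labels, 10 ng of RNA was reverse transcribed, amplified over 8 PCR cycles, and 500 pg of cDNA entered library preparation. Per the labels, the authors aligned with STAR and counted with featureCounts. The submitters' processing notes list STAR 2.5.3a, Subread 1.5.2, CASAVA 1.8 and mm10. The annotation is not given in the sources used here. Gene positions came from GENCODE M21 on GRCm38, the assembly that mm10 denotes.

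Per the file headers, the one file is a table of the DESeq2 kind comparing the groups. The deposited base mean, a signal, averages counts over the 10 libraries after normalization by the authors. Log2 is the scale of the deposited fold change and its SE. Their ratio equals the deposited Wald score (largest gap 1.14e-05). The deposited p-value is two-sided, and Benjamini-Hochberg adjustment of it gave back the adjusted one (largest gap 1.44e-07). The replicate error enters only through the SE.

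Computed here (Python 3.11.15, scipy 1.17.1) were implied group means (each pair averaging to the base mean), 95% normal intervals, scalings of both groups, and size factors from genes read once in 1 library. Group read numbers are implied means times summed size factors, and cover counting error only. The approximate spread between libraries is taken from the part of the squared SE that exceeds the counting variance. The functions were tested on simulated data. The plan assumed counts per library might be at hand; as they are not, calls rest on the deposited adjusted p-values, at 0.05. The 8 genes, the 7 pathway lists and the 7 marker lists were chosen with earlier results of these data known. Named from each list were the 3 genes with the smallest p-values and the 3 with the largest base means, apart from genes not reported here. Of 172 list symbols, 3 were matched by an older symbol and 1 was unmatched. The pairwise differences, the bands of like base mean and the spread between libraries were added after seeing the data. Likeness of other genes across libraries was not analysed here.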

Additional observations from a re-analysis of the deposited data

How the results depend on the processing

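No paired analysis was possible because the columns carry no values per library, and for the same reason no fit leaving out 1 library, edgeR or DESeq2 fit was run. Whether 1 library decides a value is not known. The 1 higher and 2 lower genes of the 8 became 0 and 2 at an adjusted p-value under 0.01, 2 and 2 under 0.1, and 0 and 1 with an absolute log2 fold change of at least 0.5, since fewer or more genes can pass. Total-count scaling gave 4 higher and 2 lower, and cardiomyocyte-marker scaling 6 higher and 1 lower, by the shift itself, with the error of the shift left out. Without Myh6, an alternative chosen after seeing the data, the marker scaling gave 5 higher and 1 lower. Trim55 reversed to 0.22 under the marker scaling, which rested on Myh6, and was -0.06 and not called without it. Trim54 stayed lower and called in all 9 alternatives, from -1.45 to -0.74. Adjustment over all p-values and median-centring changed no call among the 8 genes. Over all genes, 2340 higher and 2452 lower became 5685 and 927 under total-count scaling, 10091 and 187 under marker scaling (7587 and 539 without Myh6), and 1489 and 1246 with the minimum change. Few reads limit Foxo4 and Foxo3.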

Other observations

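Other genes of the same name families were counted after values had been seen. Of 62 other Trim genes, 42 were tested, and 13 were higher and 3 lower, with a median log2 fold change of 0.30. Of all genes tested, 16.6% were higher and 17.4% lower. With a base mean of at least 100, 8 of 21 Trim genes were higher and 1 was lower. The shares among all genes of that level were not computed. Trim47 had 1.98 (SE 0.14; adjusted p = 1.9e-42) and Trim44 had 0.94 (SE 0.24; adjusted p = 6.2e-04) in the authors' deposited table. The lower member was Trim7, which binds glycogenin, with -1.71 (SE 0.19; adjusted p = 1.2e-17) in the authors' deposited table. Its implied mean went from 285 normalized counts in GFP to 87.0 in dnMKL1.

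Of 35 other Fbxo genes, 29 were tested, and 4 were higher and 5 lower, with a median of 0.00046. These counts were near the shares of all genes tested, 16.6% higher and 17.4% lower. The 5 lower ones all had a base mean of at least 100. In the authors' deposited table they were Fbxo31 with -1.13 (SE 0.18; adjusted p = 4.6e-09), Fbxo40, Fbxo34 with -0.33 (SE 0.09; adjusted p = 0.0013), Fbxo3 with -0.33 (SE 0.08; adjusted p = 1.9e-04) and Fbxo21, known as SMART and like atrogin-1 an F-box gene of wasting muscle, with -0.28 (SE 0.07; adjusted p = 6.0e-04). The shift of 0.29 under total-count scaling exceeds the size of the Fbxo21 value.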
